A study of Arabidopsis thaliana with 9 samples.

Results

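Dark-grown Arabidopsis thaliana seedlings that overexpress AtGATA2 were compared directly with seedlings of bri1-116, leaving the Columbia wild type of the series aside. The 3 arrays titled AtGATA2ox and the 3 titled bri1-116 were used, 6 of the 9 arrays of the series, with every probe set other than the array controls. AtGATA2ox is a transgenic line overexpressing AtGATA2 (At2g45050) in the Columbia-0 background; the promoter that drives the transgene and the number of independent lines are not stated. bri1-116 is a null mutant in the same background, whose homozygotes were sorted by hand out of a segregating population after the seedlings had been frozen without light. Both genotypes spent 108 h in darkness on solid MS medium with 1% sucrose, and biotin-labelled cRNA was made from 10 µg of total RNA of whole seedlings and hybridised to single-colour Affymetrix arrays.

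AtGATA2 is a zinc-finger transcription factor of the GATA family, named after the sequence its members bind. BRI1 is the membrane receptor kinase that binds brassinosteroids, steroid hormones that promote cell elongation and hold back the light-grown habit in darkness. Seedlings overexpressing AtGATA2 and seedlings without BRI1 are both known for short hypocotyls and open cotyledons in the dark, so the comparison asks in which transcripts genotypes of like habit differ. The series was designed around the meeting point of light and brassinosteroid control of development.

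Neither AtGATA2 nor BRI1 had a named probe set, so the labels could not be checked by these genes. Pearson correlations of log2 values were 0.891 to 0.897 among the AtGATA2ox arrays, 0.922 to 0.928 among the bri1-116 arrays and 0.849 to 0.864 between genotypes. The first principal component carried 40.8% of the variance and separated the genotypes, with scores of 74.5 to 95.8 in AtGATA2ox and -89.8 to -80.0 in bri1-116. The median intensity per array was 111 ± 10.7 in AtGATA2ox and 127 ± 6.86 in bri1-116 (SD, n = 3 each). The spiked-in hybridisation controls averaged 10.9 ± 0.235 in AtGATA2ox and 10.4 ± 0.179 in bri1-116 on the log2 scale (SD, n = 3 each), without overlap; their part in the results was not tested beyond scaling the arrays to them. The 3′ to 5′ signal ratio of actin, a sign of RNA integrity, was 4.80 ± 0.992 in AtGATA2ox and 3.82 ± 1.02 in bri1-116, with overlapping arrays (SD, n = 3 each). Those of ubiquitin and GAPDH lay lower in AtGATA2ox, also with overlap, at 1.24 to 1.58 and 1.11 to 1.32 in AtGATA2ox, against 1.51 to 1.78 and 1.21 to 1.47 in bri1-116. On the array's 5S ribosomal RNA control the intensity was 107.3, 56.5 and 141.3 in AtGATA2ox, against 20.9, 7.7 and 3.5 in bri1-116, without overlap, and its part in the results was not tested. The AtGATA2ox arrays carry later record numbers, and nothing says whether all arrays shared a hybridisation, so that hybridisation and genotype cannot be told apart. No label ties replicates to separate cultures, so p-values measure the spread between these samples, which may be technical.

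The genotypes differed in a large share of the transcriptome. Of 22746 probe sets tested, 4965 (21.8%) passed an adjusted p of 0.05 in a limma fit on log2(value + 1) with Benjamini-Hochberg adjustment over all of them. Of these, 1847 (8.12%) were higher and 3118 (13.7%) lower in AtGATA2ox, and 7394 had an unadjusted p under the same threshold. The 3 arrays of one genotype did not overlap those of the other at 8546 probe sets (37.6%). Lower calls were more frequent, but higher calls reached further: 94 probe sets were at least 16-fold higher and 20 at least 16-fold lower, whereas 584 and 593 were at least 4-fold higher and lower. Over all probe sets the median log2 fold change was -0.16, and the balance of directions moved with the scaling, with 37.2% of calls higher as deposited, 46.5% after quantile normalisation, 52.0% after centring each array on its median and 11.8% after scaling to the hybridisation controls. Those scalings moved the median by 0.12, 0.20 and -0.55. Omitting bri1-116 replicate 1 left 3242 calls, and omitting bri1-116 replicate 2 left 3132.

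Calls were concentrated among bright probe sets. With the probe sets ranked by level and cut into 4 equal classes, 2.95% were called in the dimmest, with a median intensity of 14.1, 8.56% and 31.1% in the next ones and 44.7% in the brightest, with a median of 1171. With 1 probe set for each of the 13355 loci that the platform's annotation named, 2608 (19.5%) were called, 921 (6.9%) higher and 1687 (12.6%) lower, at a median log2 fold change of -0.15. The plot of level against difference shows the higher calls reaching further from 0 than the lower ones, with 48 loci at least 16-fold higher and 11 at least 16-fold lower.

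**Figure D1:**
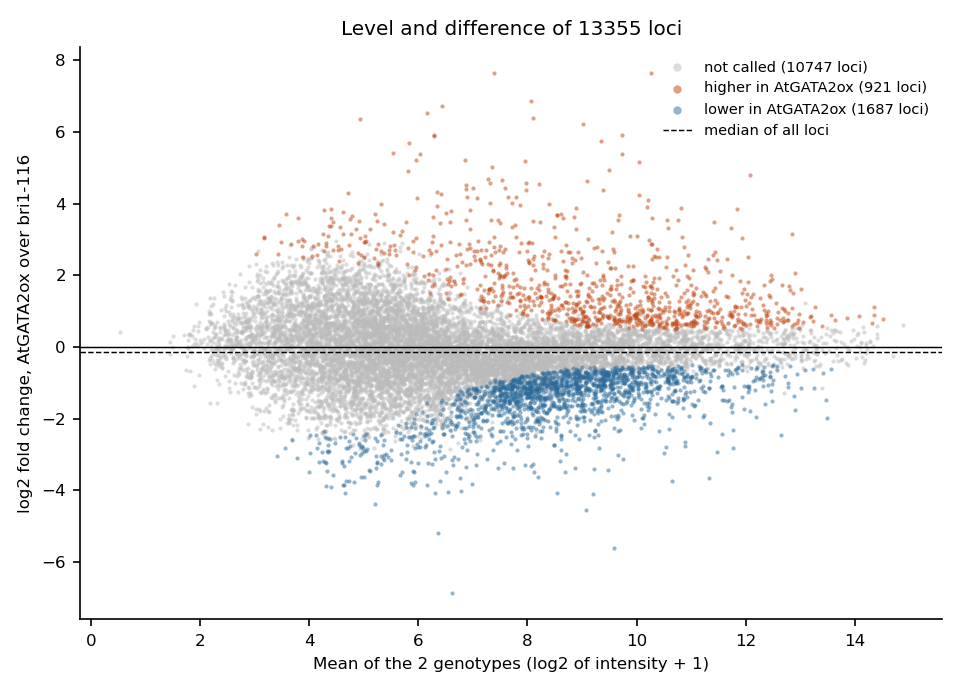
Log2 fold change (AtGATA2ox over bri1-116) of each of 13355 loci against its level, the mean of the log2 intensities of the genotypes. Orange points are the 921 loci called higher in AtGATA2ox, blue points the 1687 called lower, grey points were not called, and the dashed line marks the median of all loci at -0.15.

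Genes named as called had, unless marked, to show no overlap between the 3 and 3 arrays. Lack of overlap in them was therefore fixed by the rule for naming and is no added support. The 15 loci with the largest higher values in AtGATA2ox carried no gene symbol in the annotation used here and are given by locus. AT5G62340 read 15465.1, 17939.5 and 16541.4 in AtGATA2ox, against 66.9, 55.8 and 148.5 in bri1-116 (log2 fold change 7.64 ± 0.29 SE, adjusted p = 2.1e-07), a 200-fold difference. AT1G76640 read 2570.4, 2427.9 and 1936.0 in AtGATA2ox, against 7, 10.3 and 16.2 in bri1-116 (log2 fold change 7.63 ± 0.37 SE, adjusted p = 3e-07). AT5G62330, which lies next to AT5G62340, read 577.7, 713.8 and 740.6 in AtGATA2ox, against 9.5, 5.2 and 5 in bri1-116 (log2 fold change 6.53 ± 0.53 SE, adjusted p = 7.8e-06). In these 3 genes every AtGATA2ox array stood far above every bri1-116 array, and the bri1-116 arrays of AT1G76640 and AT5G62330 lay within the range of the Bacillus control probe sets, whose highest group mean was 61.8 in AtGATA2ox and 39.3 in bri1-116. Such a fold rests on a bri1-116 level that may be background. AT1G56060 read 4064.1, 4667.2 and 3843.4 in AtGATA2ox, against 24.2, 67.9 and 99.1 in bri1-116 (log2 fold change 6.23 ± 0.40 SE, adjusted p = 1.4e-06). AT5G19110 read 8065.9, 4148.0 and 7520.9 in AtGATA2ox, against 106.5, 71.9 and 150.5 in bri1-116 (log2 fold change 5.90 ± 0.30 SE, adjusted p = 4.6e-07). AT2G43620 read 4268.6, 3901.0 and 5115.5 in AtGATA2ox, against 94.7, 37.3 and 151.1 in bri1-116 (log2 fold change 5.74 ± 0.39 SE, adjusted p = 2.2e-06). AT1G25400 read 3900.1, 6940.1 and 5739.5 in AtGATA2ox, against 148.4, 109.4 and 129.8 in bri1-116 (log2 fold change 5.38 ± 0.23 SE, adjusted p = 2.1e-07). All 4 were at least 41.6-fold higher in AtGATA2ox, from bri1-116 group means above the Bacillus controls' highest group mean of 39.3. Single bri1-116 arrays of AT1G56060 (24.2) and AT2G43620 (37.3) lay under that value, so both folds may rest in part on background. The other 8 (AT5G04120, AT1G56680, AT2G28680, AT1G75600, AT3G19920, AT3G60420, AT4G12500 and AT1G10400) had log2 fold changes of 5.42 to 6.85, with every bri1-116 group mean in the Bacillus range. All 15 kept their direction and their call under every scaling and without any single array.

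OCT1, an organic cation and carnitine transporter, was the locus with the largest lower value. It read 8.9, 3.8 and 12.6 in AtGATA2ox, against 873.5, 1143.9 and 1029.9 in bri1-116 (log2 fold change -6.87 ± 0.50 SE, adjusted p = 3.9e-06), with the AtGATA2ox arrays in the Bacillus range and no overlap. AT3G53980 read 252.2, 70.0 and 47.7 in AtGATA2ox, against 5140.7, 5128.4 and 3948.3 in bri1-116 (log2 fold change -5.62 ± 0.46 SE, adjusted p = 8.4e-06). AT4G33550 read 173.9, 136.5 and 113.8 in AtGATA2ox, against 2734.2, 2777.1 and 1864.4 in bri1-116 (log2 fold change -4.11 ± 0.23 SE, adjusted p = 6.8e-07). In both, the highest AtGATA2ox array stayed more than 10-fold under the lowest bri1-116 array. AT3G51400 read 72.9, 105.4 and 91.4 in AtGATA2ox, against 1496.3, 1505.8 and 1552.8 in bri1-116 (log2 fold change -4.08 ± 0.22 SE, adjusted p = 5.9e-07). AT2G37870 read 272.6, 31.3 and 83.7 in AtGATA2ox, against 2964.3, 2488.8 and 1310.1 in bri1-116 (log2 fold change -4.55 ± 0.59 SE, adjusted p = 0.00023). AT2G37870 varied widely within both genotypes without overlapping. The remaining 10 (AT1G11210, AT5G23330, AT1G60770, AT2G25590, AT2G36430, AT1G69080, AT1G26090, AT5G05550, AT1G26250 and AT2G16750) had log2 fold changes of -5.18 to -3.80 with AtGATA2ox group means in the Bacillus range. All 15 kept their direction and call under every scaling and without any single array, while AT1G26250 and AT2G16750 missed the threshold without a trend in the variance (adjusted p = 0.056 and 0.051). The plot of the largest differences shows each array of these genes.

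**Figure D2:**
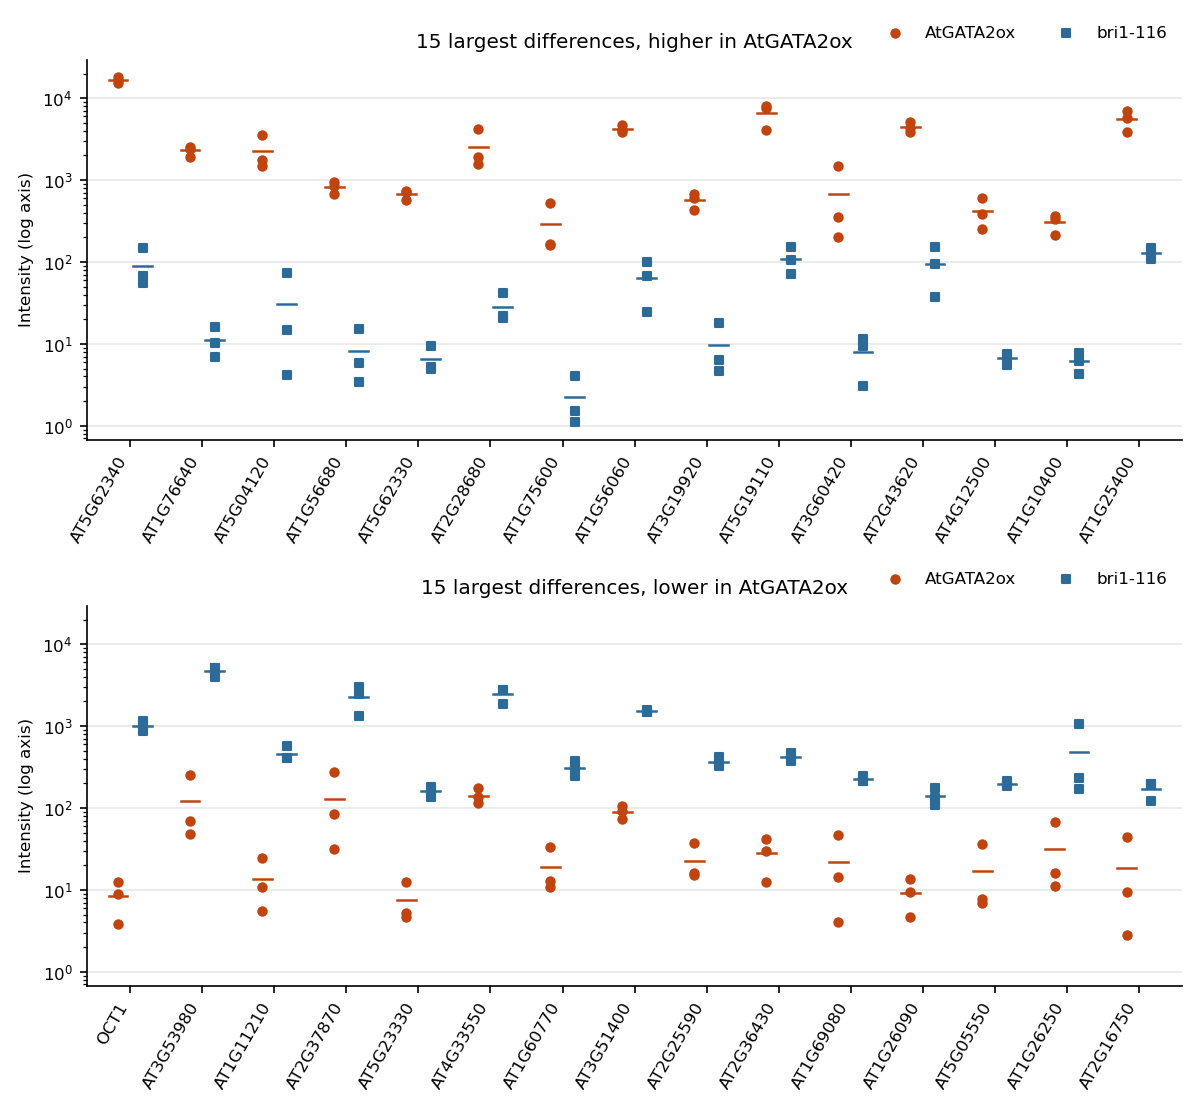
Intensity per array (log axis) of the 15 loci with the largest higher values (top) and the 15 with the largest lower values (bottom) in AtGATA2ox. Orange circles are the 3 AtGATA2ox arrays, blue squares the 3 bri1-116 arrays and bars their means. No locus overlaps between genotypes, which was a condition for being shown. AT5G62340 sits between 15465.1 and 17939.5 in AtGATA2ox and between 55.8 and 148.5 in bri1-116.

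Gene groups were described from lists of loci by symbol, and only 1557 of the 13355 loci carried a symbol, so most families were measured in part. Of 50 lists, 34 had at least 3 measured members, 11 had 1 or 2 and 5 had none, among them brassinosteroid synthesis. RNA came from whole seedlings, so fewer cells of a type and less RNA per cell cannot be told apart in any of these groups. The plots of members per list show shares and single values beside the 6.9% of all loci called higher and the 12.6% called lower. No set test was made, and a count near those shares is not a result about a list. Over the 267 genes followed through every alternative, scaling to the hybridisation controls ended the call of CSLC04, whose sign turned, and 36 others, among them those of CSLC5, psaC, psbB, psbZ, SLY1, RD2, SDP1, MCCB, HTB11, CCR2, Fes1A, Prx37, ALDH6B2 and ALDH7B4. Median centring ended 21, among them XTH19, RCA, CHLM, PORB, HEME1, PGRL1B, rps18, SPY, IAA20, bHLH115, HON4 and GUT2. Quantile normalisation ended 18, among them XTH19, PGRL1B, HEME1, psbZ, SPY, RD2, IAA20, GSTU20, PUB25, bHLH115, HON4, GUT2 and ALDH7B4. These scalings also made calls. Scaling to the hybridisation controls made 13, among them GI, EIN3, GID1C, ATG8F, TUB7, HEME2 and CML43, all lower. Median centring made 5, among them XTH32 and COB, and quantile normalisation 3, among them CML42. Genes given below as not called were so on the deposited scale. Fitting without a variance trend ended 69, among them EXLB1, EXPA9, TUB1, NdhN, PRK, RCA, CHLM, PORB, psaC, psbB, rps18, ccb382, IAA29, GID1A, COR27, CML37, GSTU20, TRXF2, HCT, CCR2, UGT78D1, ATG8E, MCCB, SDP1, HTB4, bHLH121, ALDH10A9 and ALDH2C4.

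**Figure D3:**
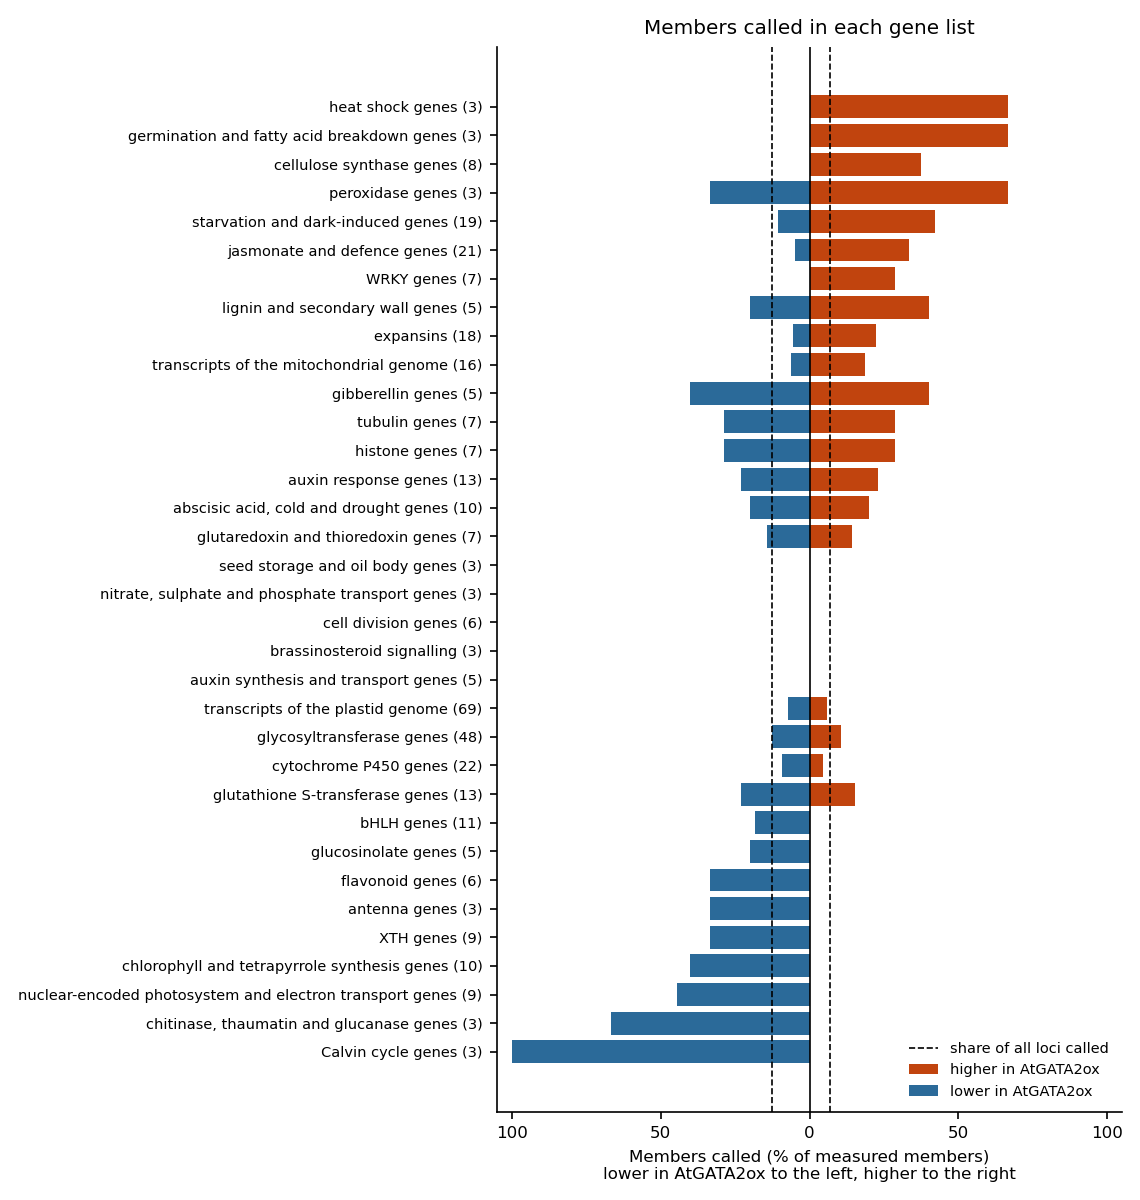
Share of the measured members of each list called higher (orange, right) or lower (blue, left) in AtGATA2ox, with the number measured in brackets; dashed lines mark the shares of all loci, 6.9% higher and 12.6% lower. Lists of 3 to 5 members move by large steps, and all 3 Calvin cycle genes were called lower.

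**Figure D4:**
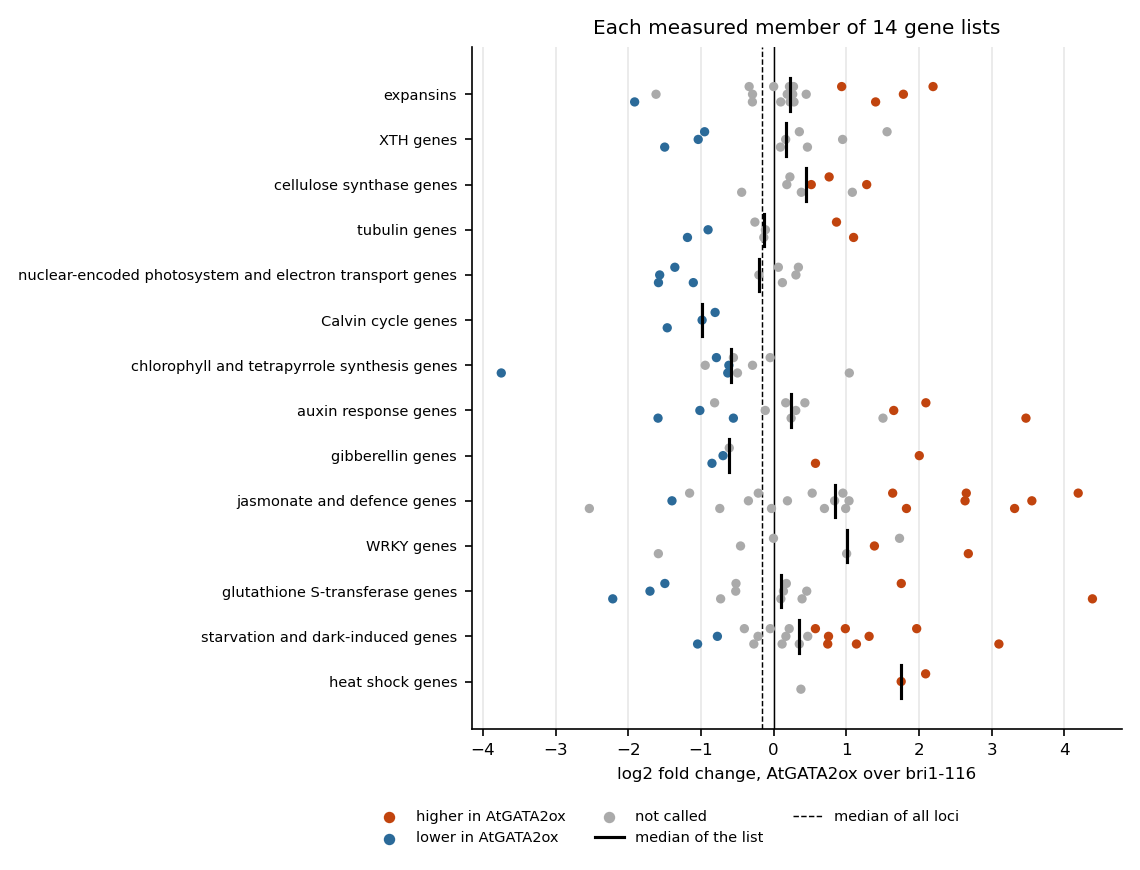
Log2 fold change (AtGATA2ox over bri1-116) of each measured member of 14 lists; orange members were called higher, blue lower and grey not called. Thick bars are list medians and the dashed line the median of all loci; the list of jasmonate and defence genes has a median of 0.84 and the Calvin cycle list one of -0.98.

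Expansins, proteins that loosen the growing cell wall, were called more often higher than lower. Of 18 measured, 4 were higher and 1 lower, with a median log2 fold change of 0.22 against -0.15 over all loci; quantile normalisation and median centring gave the same counts, scaling to the hybridisation controls gave 2 higher, 1 lower and a median of -0.33, and fitting without a variance trend 2 higher and none lower. EXPA8 read 1170.1, 1276.6 and 2410.7 in AtGATA2ox, against 264.4, 385.8 and 366.3 in bri1-116 (log2 fold change 2.19 ± 0.27 SE, adjusted p = 0.00017). EXPA16 read 676.4, 925.4 and 1193.2 in AtGATA2ox, against 398.3, 231.2 and 196.4 in bri1-116 (log2 fold change 1.79 ± 0.29 SE, adjusted p = 0.001). The AtGATA2ox arrays of both were all above the bri1-116 arrays. EXPA9 read 6853.7, 6627.2 and 8429.8 in AtGATA2ox, against 3530.5, 4356.4 and 3553.3 in bri1-116 (log2 fold change 0.94 ± 0.18 SE, adjusted p = 0.0025), and its call was lost with hybridisation-control scaling (adjusted p = 0.25). EXPB3, a beta-expansin named after its values were seen, had a log2 fold change of 1.40 and lost its call under the same scaling (adjusted p = 0.066). The expansin-like EXLB1 went the other way, at 48.8, 84.2 and 162.3 in AtGATA2ox, against 350.0, 339.9 and 307.8 in bri1-116 (log2 fold change -1.91 ± 0.42 SE, adjusted p = 0.0061). EXPA4 was not called, at 1483.4, 1856.4 and 2002.6 in AtGATA2ox, against 1388.6, 1535.8 and 1496.9 in bri1-116, and its arrays overlapped.

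XTH genes encode enzymes that cut and rejoin xyloglucan, the tether between cellulose fibrils. Of 9 measured, none was higher and 3 were lower, at a median of 0.17 that became -0.39 with hybridisation-control scaling; median centring gave 1 higher and 2 lower. XTH16 read 2288.5, 1547.0 and 1968.4 in AtGATA2ox, against 5849.0, 5187.0 and 5189.8 in bri1-116 (log2 fold change -1.50 ± 0.18 SE, adjusted p = 0.00012). XTH33 read 463.2, 426.9 and 507.6 in AtGATA2ox, against 1064.6, 904.1 and 905.3 in bri1-116 (log2 fold change -1.04 ± 0.18 SE, adjusted p = 0.0014). Each AtGATA2ox array of these genes was below each bri1-116 array. XTH19 had a log2 fold change of -0.95 and was not called without bri1-116 replicate 1 or replicate 2 (adjusted p = 0.12 each). XTH32 and XTH18 were not called, with log2 fold changes of 0.47 and 0.35.

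Cellulose synthase and cellulose synthase-like genes included 3 higher and none lower of 8 measured, at a median of 0.45. Scaling to the hybridisation controls left 1 higher and 1 lower and turned the median to -0.11. CSLD2, a cellulose synthase-like gene linked to tip growth, read 2495.5, 3141.7 and 2621.1 in AtGATA2ox, against 997.8, 1128.2 and 1271.5 in bri1-116 (log2 fold change 1.28 ± 0.17 SE, adjusted p = 0.00024), with no overlap. CSLC5 had a log2 fold change of 0.76, lost without bri1-116 replicate 1 (adjusted p = 0.058), and CSLC04 one of 0.52, lost without any of 5 arrays (all but AtGATA2ox replicate 1; adjusted p = 0.075 to 0.17) and at -0.04 with hybridisation-control scaling. COB, which orients cellulose deposition, was not called at 0.38.

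Tubulin genes, whose products form the microtubules that guide cellulose deposition, were split with 2 higher and 2 lower of 7, at a median of -0.14 that median centring turned to 0.07. TUB1 read 1391.7, 1244.3 and 983.3 in AtGATA2ox, against 585.3, 652.2 and 451.6 in bri1-116 (log2 fold change 1.10 ± 0.20 SE, adjusted p = 0.0023). TUA6 read 24047.8, 21992.0 and 24274.7 in AtGATA2ox, against 13471.5, 12618.6 and 12498.0 in bri1-116 (log2 fold change 0.87 ± 0.20 SE, adjusted p = 0.0075). Both were higher in AtGATA2ox on every array, as the naming rule required. TUA6 was not called without bri1-116 replicate 2 (adjusted p = 0.053), and neither TUB1 nor TUA6 was called with hybridisation-control scaling (adjusted p = 0.13 and 0.37). TUB6 read 3674.0, 3272.0 and 3668.1 in AtGATA2ox, against 6332.7, 6947.5 and 6542.2 in bri1-116 (log2 fold change -0.90 ± 0.16 SE, adjusted p = 0.0016). TUB5 read 968.6, 831.6 and 729.8 in AtGATA2ox, against 1726.6, 2234.4 and 1796.6 in bri1-116 (log2 fold change -1.19 ± 0.18 SE, adjusted p = 0.00059). These beta-tubulins were lower in AtGATA2ox under each scaling, and TUB9 and TUB7 were not called (log2 fold changes of -0.11 and -0.26).

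Class III peroxidases, which cross-link or loosen walls, were represented by 3 genes, all called. PRXR1 read 1201.6, 1195.0 and 718.7 in AtGATA2ox, against 6860.5, 8754.4 and 7711.0 in bri1-116 (log2 fold change -2.94 ± 0.21 SE, adjusted p = 3.6e-06). PRX52 read 200.3, 256.4 and 128.0 in AtGATA2ox, against 34.8, 42.7 and 45.6 in bri1-116 (log2 fold change 2.17 ± 0.48 SE, adjusted p = 0.0063). They moved in opposite directions, each without overlap. Prx37 had a log2 fold change of 1.42, and its call ended without any of 5 arrays (all but AtGATA2ox replicate 3; adjusted p = 0.076 to 0.14). The plot of array values sets these wall genes beside members of the groups that follow.

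**Figure D5:**
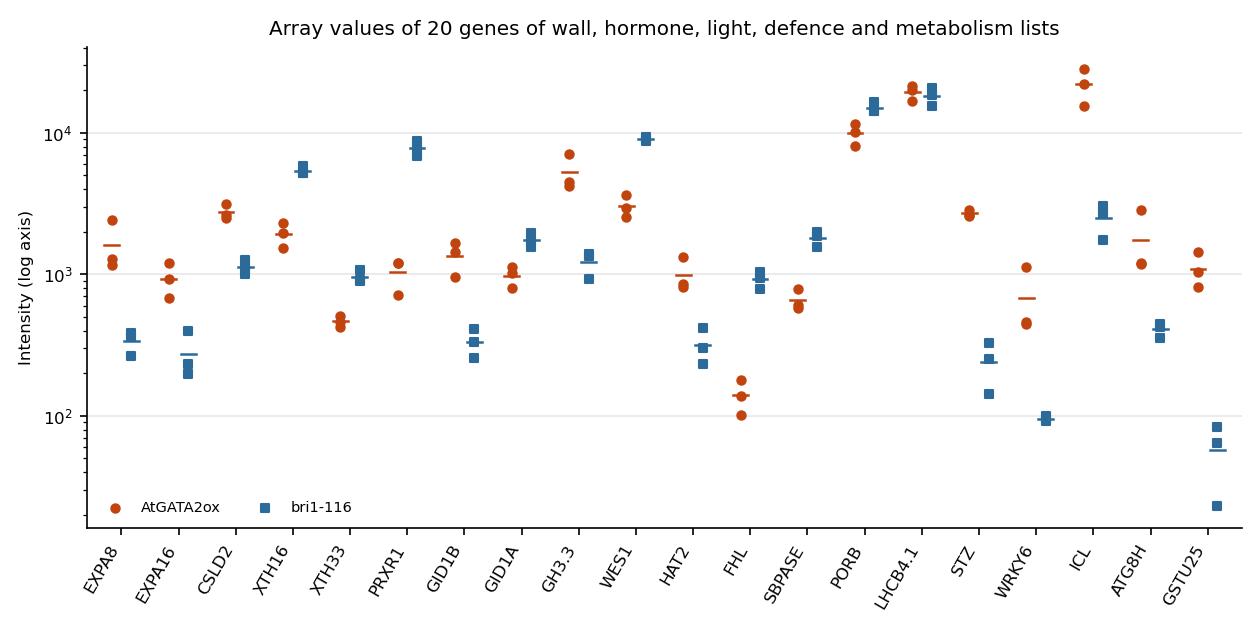
Intensity per array (log axis) of 20 genes from the wall, hormone, light, defence and metabolism lists. Orange circles are the 3 AtGATA2ox arrays, blue squares the 3 bri1-116 arrays and bars their means; all genes but LHCB4.1, which spans 16865.8 to 21282.9 in AtGATA2ox and 15404.7 to 20617.9 in bri1-116, were called.

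Photosynthesis genes of the nucleus were called lower or not at all. Of 9 genes for photosystem subunits and electron transport, 4 were lower and none higher, at a median of -0.20, near the -0.15 of all loci. The log2 fold change was positive in 4 of the 9. Quantile normalisation or median centring gave 3 lower and hybridisation-control scaling 5. ATPC2, a gamma subunit of the chloroplast ATP synthase, read 122.4, 111.5 and 88 in AtGATA2ox, against 378.7, 299.8 and 290.8 in bri1-116 (log2 fold change -1.58 ± 0.30 SE, adjusted p = 0.0029). NdhL, a subunit of the chloroplast NADH dehydrogenase-like complex, read 146.7, 92.6 and 118.1 in AtGATA2ox, against 323.8, 361.0 and 363.8 in bri1-116 (log2 fold change -1.57 ± 0.29 SE, adjusted p = 0.0025). NdhN, of the same complex, read 315.3, 152.7 and 192.5 in AtGATA2ox, against 580.0, 472.1 and 576.8 in bri1-116 (log2 fold change -1.36 ± 0.28 SE, adjusted p = 0.0047). All 3 were lower on every AtGATA2ox array. PGRL1B, of cyclic electron flow, had a log2 fold change of -1.11, lost without AtGATA2ox replicate 1 or 3 or bri1-116 replicate 1 or 2 (adjusted p = 0.067 to 0.18). PSBY and PSAE-1, of the photosystem cores, were not called, with log2 fold changes of 0.31 and 0.12.

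The antenna list held the 3 LHCB4 genes, which encode a minor chlorophyll-binding protein of photosystem II. LHCB4.3 read 235.7, 190.3 and 268.4 in AtGATA2ox, against 514.1, 482.0 and 532.7 in bri1-116 (log2 fold change -1.15 ± 0.23 SE, adjusted p = 0.0034). LHCB4.1 read 21282.9, 20132.6 and 16865.8 in AtGATA2ox, against 18412.2, 15404.7 and 20617.9 in bri1-116. LHCB4.2 read 21339.8, 16789.0 and 24332.0 in AtGATA2ox, against 22911.3, 19133.1 and 18787.3 in bri1-116. LHCB4.3 was lower without overlap, whereas the arrays of LHCB4.1 and LHCB4.2 overlapped and their log2 fold changes were 0.10 and 0.03 (adjusted p = 0.80 and 0.95). The list's median of 0.03 was -0.22 after quantile normalisation and -0.53 with hybridisation-control scaling.

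All 3 measured Calvin cycle genes, of photosynthetic carbon fixation, were lower, at a median of -0.98, with 3 of 3 under hybridisation-control scaling, 2 of 3 with median centring and 1 of 3 without a variance trend, where PRK and RCA were not called (adjusted p = 0.11 each). SBPASE, the sedoheptulose bisphosphatase, read 782.3, 606.4 and 581.3 in AtGATA2ox, against 1564.1, 2002.0 and 1854.2 in bri1-116 (log2 fold change -1.46 ± 0.18 SE, adjusted p = 0.00017). PRK, the phosphoribulokinase, read 1240.3, 1065.3 and 899.1 in AtGATA2ox, against 1604.3, 1893.6 and 3031.3 in bri1-116 (log2 fold change -0.98 ± 0.23 SE, adjusted p = 0.0095). RCA, the Rubisco activase, read 5123.0, 6258.3 and 4000.1 in AtGATA2ox, against 8519.6, 7683.6 and 10458.2 in bri1-116 (log2 fold change -0.81 ± 0.21 SE, adjusted p = 0.015). Lack of overlap was a condition for naming these 3. The call of RCA ended without AtGATA2ox replicate 3, bri1-116 replicate 1 or bri1-116 replicate 3 (adjusted p = 0.054 to 0.074).

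Chlorophyll and tetrapyrrole synthesis genes counted 4 lower and none higher of 10, at a median of -0.58, with 3 lower after quantile normalisation, 1 after median centring or without a variance trend and 6 after hybridisation-control scaling. CHLM, which methylates magnesium protoporphyrin, read 4048.8, 3763.9 and 3739.3 in AtGATA2ox, against 8165.5, 6867.6 and 5224.6 in bri1-116 (log2 fold change -0.79 ± 0.19 SE, adjusted p = 0.011). PORB, the protochlorophyllide oxidoreductase that is abundant in etiolated tissue, read 11552.8, 10093.6 and 8013.6 in AtGATA2ox, against 14200.9, 14366.4 and 16482.6 in bri1-116 (log2 fold change -0.62 ± 0.20 SE, adjusted p = 0.049). HEME1, a uroporphyrinogen decarboxylase, read 640.9, 819.3 and 548.3 in AtGATA2ox, against 1148.3, 1007.6 and 925.9 in bri1-116 (log2 fold change -0.63 ± 0.19 SE, adjusted p = 0.037). Lack of overlap was a condition for naming these genes. Each call was lost without single arrays: CHLM without bri1-116 replicate 1 or 2 (adjusted p = 0.054 to 0.074), PORB without any but AtGATA2ox replicate 1 (0.064 to 0.16) and HEME1 without any but AtGATA2ox replicate 2 (0.063 to 0.17). The coproporphyrinogen oxidase gene hemf2, named after its values were seen, had a log2 fold change of -3.75 with AtGATA2ox values of 7.2, 3.1 and 6.8 against 168.9, 68.1 and 53.1 in bri1-116, so its AtGATA2ox level lay in the Bacillus range. HEMB1 and HEME2 were not called (-0.05 and -0.29).

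Transcripts of the plastid genome did not share 1 direction. Of 69 measured, 4 were higher and 5 lower, both under the shares of all loci, at a median of -0.16. Median centring gave 6 higher and none lower with a median of 0.05, quantile normalisation 3 higher and 8 lower, hybridisation-control scaling none higher and 17 lower, and a fit without a variance trend none in either direction. Leaving out 1 array gave 1 to 4 higher and 0 to 10 lower. psaC, of photosystem I, read 4662.6, 4554.4 and 4029.7 in AtGATA2ox, against 3002.9, 2821.7 and 1580.5 in bri1-116 (log2 fold change 0.89 ± 0.23 SE, adjusted p = 0.015). psbB, of the photosystem II core, read 3453.4, 3809.7 and 3370.7 in AtGATA2ox, against 2038.5, 2120.8 and 2470.8 in bri1-116 (log2 fold change 0.68 ± 0.16 SE, adjusted p = 0.0081). rps18, of the plastid ribosome, read 1550.7, 1127.1 and 1496.7 in AtGATA2ox, against 2982.2, 2783.0 and 1787.7 in bri1-116 (log2 fold change -0.83 ± 0.22 SE, adjusted p = 0.016). Lack of overlap in these was set by the naming rule. The call of psaC ended without bri1-116 replicate 3 (adjusted p = 0.052), that of psbB without bri1-116 replicate 1 or 2 (0.053 to 0.060) and that of rps18 without the same 2 arrays (0.081 to 0.091). psbZ, of photosystem II, had a log2 fold change of 0.84 and was not called without bri1-116 replicate 3 (0.083). Of the other plastid genes called lower, named after their values were seen, atpB and ndhA had overlapping arrays. atpB was not called without any array but AtGATA2ox replicate 2 (adjusted p = 0.061 to 0.15), ndhA without AtGATA2ox replicate 1 or 3 or bri1-116 replicate 1 or 2 (0.089 to 0.10), and psbF, at -0.62, without any array but AtGATA2ox replicate 2 (0.066 to 0.17).

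Among light, clock and ethylene regulators few genes were measured. FHL, which carries phytochrome A into the nucleus, read 180.2, 138.8 and 101.9 in AtGATA2ox, against 1036.0, 790.9 and 934.9 in bri1-116 (log2 fold change -2.73 ± 0.26 SE, adjusted p = 2.4e-05), without overlap and under every scaling. HYH, a bZIP factor of light signalling, read 45.2, 18.4 and 133.4 in AtGATA2ox, against 51.3, 39.6 and 5.7 in bri1-116 and was not called. The bri1-116 mean of HYH lay in the Bacillus range, so HYH is not shown to be unchanged. Of the clock genes, TIC had a log2 fold change of -1.16 that was not called after quantile normalisation (adjusted p = 0.073) or without bri1-116 replicate 2 or 3 (0.090 to 0.093), and GI one of -0.48 that was not called. RTE1, which promotes signalling by the ethylene receptor ETR1, read 819.7, 641.3 and 861.0 in AtGATA2ox, against 1767.0, 1578.9 and 2093.6 in bri1-116 (log2 fold change -1.23 ± 0.18 SE, adjusted p = 0.00056), lower on every array. EIN3, a transcription factor of the ethylene response, was not called at -0.21.

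Of the 3 brassinosteroid signalling genes measured, none was called, which does not show the pathway to be unchanged. BRL1, a receptor related to BRI1, read 97, 95.4 and 43.5 in AtGATA2ox, against 61.1, 18.2 and 36.1 in bri1-116 (adjusted p = 0.31). The bri1-116 mean of BRL1 lay in the Bacillus range and may be background. CES, a bHLH factor of the pathway, had a log2 fold change of 0.27 and BIM1, a partner of the transcription factor BES1, one of -0.47 (adjusted p = 0.87 and 0.30). All 3 overlapped between genotypes, and the median of 0.27 became -0.29 with hybridisation-control scaling.

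Auxin response genes moved both ways, with 3 higher and 3 lower of 13 at a median of 0.24. Quantile normalisation and median centring gave 3 higher and 2 lower, and hybridisation-control scaling 3 higher, 4 lower and a median of -0.31. GH3.3, an enzyme that conjugates auxin to amino acids, read 4241.8, 4494.5 and 7055.7 in AtGATA2ox, against 923.6, 1393.7 and 1338.5 in bri1-116 (log2 fold change 2.09 ± 0.23 SE, adjusted p = 6.4e-05). WES1, another GH3 enzyme, read 2522.5, 2952.7 and 3660.4 in AtGATA2ox, against 8807.5, 8990.4 and 9410.9 in bri1-116 (log2 fold change -1.59 ± 0.18 SE, adjusted p = 8.3e-05). These members of 1 family thus differed in direction, both without overlap. HAT2, a homeodomain factor induced by auxin, read 848.9, 813.6 and 1322.8 in AtGATA2ox, against 232.0, 303.3 and 415.0 in bri1-116 (log2 fold change 1.65 ± 0.26 SE, adjusted p = 0.00085). IAA29, an auxin-response repressor, had a log2 fold change of -1.01, a call that ended without any array but AtGATA2ox replicate 1 (adjusted p = 0.060 to 0.085). GH3.1 and IAA20 (-0.55) were the remaining calls, named after their values were seen. GH3.1 read 60.8, 68.9 and 82.5 in AtGATA2ox, against 6.7, 3.4 and 6.8 in bri1-116, where its mean lay in the Bacillus range, and it was too dim for the rule on named genes. IAA20 was not called without any array but AtGATA2ox replicate 2 (adjusted p = 0.060 to 0.13). No gene of auxin synthesis or transport was called among 5, at a median of -0.19.

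The 3 gibberellin receptors were measured and did not move together. GID1B read 955.7, 1651.3 and 1439.1 in AtGATA2ox, against 256.7, 331.7 and 410.5 in bri1-116 (log2 fold change 2.00 ± 0.25 SE, adjusted p = 0.00015). GID1A read 794.1, 1128.6 and 1019.4 in AtGATA2ox, against 1733.4, 1973.9 and 1560.6 in bri1-116 (log2 fold change -0.85 ± 0.18 SE, adjusted p = 0.0056). GID1C read 189.7, 246.6 and 292.2 in AtGATA2ox, against 330.9, 358.4 and 411.9 in bri1-116 and was not called (log2 fold change of -0.61, adjusted p = 0.11). GID1B was higher and GID1A lower, neither with overlap, and GID1A missed the threshold with median centring (adjusted p = 0.051). SLY1, the F-box protein that removes DELLA repressors, had a log2 fold change of 0.58, not called without any 1 of the bri1-116 arrays (adjusted p = 0.061 to 0.088). SPY, a DELLA-modifying repressor of the pathway, had a log2 fold change of -0.70, lost without AtGATA2ox replicate 1 or 3 or bri1-116 replicate 2 or 3 (adjusted p = 0.085 to 0.19). Of the 5 genes, 2 were higher and 2 lower as deposited, 2 and 0 with median centring, 2 and 1 after quantile normalisation and 1 and 3 with hybridisation-control scaling, at a median of -0.61 as deposited.

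Abscisic acid, cold and drought genes counted 2 higher and 2 lower of 10, at a median of -0.12 that was 0.09 with median centring. COR47, a dehydrin, read 297.2, 334.0 and 375.8 in AtGATA2ox, against 878.8, 1062.3 and 1122.0 in bri1-116 (log2 fold change -1.60 ± 0.19 SE, adjusted p = 0.00013). HVA22C, of a family induced by abscisic acid in barley, read 242.4, 286.6 and 209.1 in AtGATA2ox, against 495.4, 531.0 and 506.7 in bri1-116 (log2 fold change -1.06 ± 0.22 SE, adjusted p = 0.0046). COR27, a cold-regulated gene, read 477.7, 591.1 and 686.3 in AtGATA2ox, against 202.9, 253.5 and 336.4 in bri1-116 (log2 fold change 1.16 ± 0.25 SE, adjusted p = 0.0058). COR47 and HVA22C were lower and COR27 higher on all arrays, and COR27 was not called with hybridisation-control scaling (adjusted p = 0.18). RD2 had a log2 fold change of 0.63, lost without AtGATA2ox replicate 1 or 2 or bri1-116 replicate 2 or 3 (adjusted p = 0.051 to 0.19).

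On the jasmonate and defence list, 7 of 21 genes were higher and 1 lower, at a median of 0.84. Most of its members were calmodulin-like (CML) or ubiquitin ligase (PUB) genes, families with 7 and 9 measured loci. None of the genes called was of jasmonate synthesis. Median centring gave 9 and 1, quantile normalisation 11 and 0, and hybridisation-control scaling 5 and 3 with a median of 0.28. STZ, a zinc-finger repressor induced by salt, cold and wounding, read 2864.5, 2618.3 and 2592.3 in AtGATA2ox, against 252.2, 143.6 and 327.9 in bri1-116 (log2 fold change 3.55 ± 0.26 SE, adjusted p = 4e-06). PDF1.4, a defensin-like peptide, read 1876.2, 8090.3 and 5038.4 in AtGATA2ox, against 483.7, 233.2 and 682.7 in bri1-116 (log2 fold change 3.32 ± 0.47 SE, adjusted p = 0.00044). PUB22, a ubiquitin ligase that dampens immune signalling, read 762.3, 651.8 and 327.5 in AtGATA2ox, against 109.5, 94.2 and 64.1 in bri1-116 (log2 fold change 2.63 ± 0.36 SE, adjusted p = 0.00034). All 3 were higher on every AtGATA2ox array under each scaling. CML38, a calmodulin-like calcium sensor, read 387.6, 851.1 and 229.4 in AtGATA2ox, against 101.3, 40.1 and 72.3 in bri1-116 (log2 fold change 2.65 ± 0.49 SE, adjusted p = 0.0024). Named after their values were seen, the sensors CML37, CML41 and CML23 had log2 fold changes of 4.19, 1.83 and 1.64. The bri1-116 arrays of CML37 read 50.9, 2.8 and 40.6, with a mean in the Bacillus range, and its call ended without a variance trend (adjusted p = 0.067). CML41 was not called without AtGATA2ox replicate 2 or bri1-116 replicate 1 or 2 (adjusted p = 0.062 to 0.091), and CML41 and CML23 not with hybridisation-control scaling (0.099 and 0.059). CML42 and CML43 were not called (0.53 and -0.35). PUB25, also named after its values were seen, was the gene called lower, at -1.40, and lost its call without AtGATA2ox replicate 3 or bri1-116 replicate 1 or 2 (adjusted p = 0.055 to 0.11).

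Of 3 chitinase and thaumatin genes measured by symbol, which encode enzymes and proteins acting on fungal walls and membranes, 2 were lower and none higher. OSM34, an osmotin-like protein, read 234.7, 322.4 and 295.7 in AtGATA2ox, against 2187.0, 2479.1 and 2172.3 in bri1-116 (log2 fold change -3.01 ± 0.18 SE, adjusted p = 1.1e-06). ChiC, a class V chitinase, read 73.4, 62.8 and 53.1 in AtGATA2ox, against 1013.6, 733.3 and 384.8 in bri1-116 (log2 fold change -3.38 ± 0.37 SE, adjusted p = 6.7e-05). CHI read 125.4, 387.5 and 122.1 in AtGATA2ox, against 260.3, 357.1 and 163.8 in bri1-116 and was not called. OSM34 and ChiC were lower on all arrays, and the list stayed at 2 lower of 3 under each scaling. Members of these families without a symbol were not counted, so no direction of the families follows from these 3 genes.

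WRKY factors, many of which act in defence and senescence, included 2 higher and none lower of 7, at a median of 1.00. WRKY6 read 444.4, 1118.6 and 463.3 in AtGATA2ox, against 94.4, 99.2 and 91.3 in bri1-116 (log2 fold change 2.68 ± 0.35 SE, adjusted p = 0.00025). WRKY47 read 326.1, 290.4 and 362.0 in AtGATA2ox, against 143.7, 156.0 and 84.2 in bri1-116 (log2 fold change 1.39 ± 0.32 SE, adjusted p = 0.0085). Both were higher without overlap, and WRKY47 was not called with hybridisation-control scaling (adjusted p = 0.10). WRKY22 and WRKY20 were not called, and their arrays overlapped.

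Glutathione S-transferases, which conjugate reactive and foreign compounds, were called in both directions, 2 higher and 3 lower of 13, at a median of 0.10 that became -0.46 with hybridisation-control scaling. GSTU25 read 1434.4, 1039.5 and 815.9 in AtGATA2ox, against 23, 83.6 and 64.7 in bri1-116 (log2 fold change 4.39 ± 0.43 SE, adjusted p = 3.5e-05). GSTU22 read 880.5, 721.4 and 676.4 in AtGATA2ox, against 264.6, 222.9 and 187.2 in bri1-116 (log2 fold change 1.76 ± 0.22 SE, adjusted p = 0.00019). GSTL3 read 179.2, 299.6 and 169.6 in AtGATA2ox, against 708.5, 881.2 and 506.6 in bri1-116 (log2 fold change -1.70 ± 0.29 SE, adjusted p = 0.0013). GSTU25 and GSTU22 were higher, GSTL3 lower, none with overlap. GSTU18 had a log2 fold change of -1.50, and GSTU20 one of -2.21 that was lost without any array but AtGATA2ox replicate 1 (adjusted p = 0.088 to 0.11). GRX480, a glutaredoxin that works with TGA factors of the salicylic acid response, read 532.9, 478.2 and 467.4 in AtGATA2ox, against 71.2, 69.8 and 79.3 in bri1-116 (log2 fold change 2.73 ± 0.28 SE, adjusted p = 4.8e-05), higher on every array. TRXF2, a chloroplast thioredoxin, had a log2 fold change of -1.13 and was not called without bri1-116 replicate 2 (adjusted p = 0.073).

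Glycosyltransferases and phenylpropanoid genes also divided. Of 48 glycosyltransferase genes, 5 were higher and 6 lower, near the shares of all loci, at a median of 0.02. Scaling to the hybridisation controls gave 3 higher, 10 lower and a median of -0.54, and a fit without a variance trend 7 and 2. UGT72E1, a glucosyltransferase acting on lignin precursors, read 224.5, 201.9 and 286.7 in AtGATA2ox, against 1022.1, 979.7 and 877.3 in bri1-116 (log2 fold change -2.02 ± 0.21 SE, adjusted p = 4.4e-05). UGT72E2, of the same activity, read 192.6, 113.8 and 126.5 in AtGATA2ox, against 809.5, 520.8 and 452.0 in bri1-116 (log2 fold change -2.03 ± 0.30 SE, adjusted p = 0.00057). UGT71C2 read 465.5, 551.5 and 1137.0 in AtGATA2ox, against 162.9, 136.0 and 146.6 in bri1-116 (log2 fold change 2.16 ± 0.32 SE, adjusted p = 0.00055). The UGT72E genes were lower and UGT71C2 higher, without overlap. UGT87A2 had a log2 fold change of 1.76. UGT76B1, named after its values were seen, had a log2 fold change of 2.28. Of 6 flavonoid genes 2 were lower and none higher, at a median of -0.57 and with the same counts under each scaling. CHIL, a chalcone isomerase-like protein that promotes flavonoid synthesis, read 15.6, 23.9 and 4.7 in AtGATA2ox, against 111.5, 197.3 and 179.2 in bri1-116 (log2 fold change -3.58 ± 0.73 SE, adjusted p = 0.0042). UGT78D1, a flavonol rhamnosyltransferase, read 9.7, 4.4 and 50.2 in AtGATA2ox, against 152.6, 172.1 and 158.1 in bri1-116 (log2 fold change -3.49 ± 0.82 SE, adjusted p = 0.0095). Both had AtGATA2ox group means in the Bacillus range, and DFR, of anthocyanin synthesis, was not called at 0.85. Of 5 lignin and secondary wall genes 2 were higher and 1 lower. CCOAMT, a caffeoyl-CoA methyltransferase, read 970.1, 1019.7 and 1045.4 in AtGATA2ox, against 179.3, 184.6 and 232.8 in bri1-116 (log2 fold change 2.35 ± 0.20 SE, adjusted p = 1.2e-05), without overlap. HCT, at the entry to monolignol synthesis, had a log2 fold change of -0.79, not called without bri1-116 replicate 1 (adjusted p = 0.050) or with median centring (0.054). CCR2, a cinnamoyl-CoA reductase, had a log2 fold change of 2.85, from a bri1-116 mean in the Bacillus range, which did not hold without any 1 of the AtGATA2ox arrays or bri1-116 replicate 1 (0.056 to 0.14). Cytochrome P450 genes counted 1 higher and 2 lower of 22, at a median of 0.03, under the shares of all loci, and 1 higher and 5 lower with hybridisation-control scaling. CYP71B5 had a log2 fold change of -1.21 and missed the threshold without bri1-116 replicate 2 (adjusted p = 0.051).

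Genes of reserve use and of starvation in the dark were more often higher than lower. ICL, the isocitrate lyase of the glyoxylate cycle that turns stored oil into sugar, read 15496.7, 28296.6 and 22231.6 in AtGATA2ox, against 2674.8, 3021.3 and 1760.7 in bri1-116 (log2 fold change 3.14 ± 0.26 SE, adjusted p = 8.9e-06), with no overlap. SDP1, the lipase that opens seed oil, had a log2 fold change of 0.97, not called without AtGATA2ox replicate 2 or 3 or bri1-116 replicate 1 or 2 (adjusted p = 0.053 to 0.13). AIM1, of fatty acid beta-oxidation, was not called at -0.30, leaving 2 higher of 3, and 1 of 3 with hybridisation-control scaling. Of 19 starvation and dark-induced genes, 8 were higher and 2 lower, at a median of 0.35. Median centring gave 8 and 0, quantile normalisation 6 and 0, hybridisation-control scaling 2 and 4 with a median of -0.20, and a fit without a variance trend 2 and 0. Leaving out 1 array gave 4 to 8 higher and 0 to 2 lower, with 4 higher without AtGATA2ox replicate 3, bri1-116 replicate 1 or bri1-116 replicate 2. ATG8H, an autophagy protein that coats the forming vesicle, read 1187.3, 2835.6 and 1195.4 in AtGATA2ox, against 426.8, 443.2 and 353.3 in bri1-116 (log2 fold change 1.97 ± 0.30 SE, adjusted p = 0.00063). ETFQO, which feeds electrons from amino acid breakdown into the mitochondrial chain, read 856.5, 1308.4 and 1028.5 in AtGATA2ox, against 398.8, 384.8 and 486.9 in bri1-116 (log2 fold change 1.31 ± 0.21 SE, adjusted p = 0.0008). ATG8E read 4671.0, 5995.8 and 7535.3 in AtGATA2ox, against 2387.6, 2336.1 and 3539.0 in bri1-116 (log2 fold change 1.14 ± 0.22 SE, adjusted p = 0.0031). These 3 were higher on every array, and ETFQO and ATG8E lost their calls with hybridisation-control scaling (adjusted p = 0.063 and 0.13). MCCB, of leucine breakdown, had a log2 fold change of 0.99, not called without bri1-116 replicate 1 (adjusted p = 0.063). The ATG8 family was not uniform: ATG8G, named after its values were seen, had a log2 fold change of -1.05, lost without AtGATA2ox replicate 1 or any bri1-116 array (0.058 to 0.087), and ATG8F and APG8H were not called (-0.21 and -0.05). Also named after their values were seen, IVD (0.74), AKINBETA1 (0.76), APG8A (0.57) and SAG29 (from a bri1-116 mean in the Bacillus range) were higher and ATG3 (-0.77) lower, and their calls ended without any 1 of 5, 4, 3, 4 and 5 arrays in turn (adjusted p = 0.051 to 0.19).

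Transcripts of the mitochondrial genome counted 3 higher and 1 lower of 16, at a median of 0.19 that became -0.36, with 1 higher and 1 lower, under hybridisation-control scaling. cox2, a subunit of cytochrome c oxidase, read 1368.5, 2661.5 and 2472.0 in AtGATA2ox, against 449.6, 485.8 and 371.6 in bri1-116 (log2 fold change 2.26 ± 0.24 SE, adjusted p = 6.4e-05). nad4L, of respiratory complex I, read 520.1, 569.3 and 470.9 in AtGATA2ox, against 172.4, 296.8 and 175.8 in bri1-116 (log2 fold change 1.31 ± 0.26 SE, adjusted p = 0.0038). ccb382, of cytochrome c maturation, read 202.4, 240.1 and 214.8 in AtGATA2ox, against 766.6, 891.2 and 351.6 in bri1-116 (log2 fold change -1.50 ± 0.32 SE, adjusted p = 0.0053). The first pair was higher and ccb382 lower, without overlap; nad4L was not called with hybridisation-control scaling (adjusted p = 0.11). The nuclear genome of Arabidopsis holds copies of mitochondrial sequence, which a probe set may not tell apart.

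Heat shock genes were measured in 3 cases. Hsp70-2, a chaperone, read 1420.5, 1610.1 and 1615.8 in AtGATA2ox, against 483.9, 488.6 and 404.7 in bri1-116 (log2 fold change 1.75 ± 0.17 SE, adjusted p = 3.2e-05), higher on all arrays under each scaling. Fes1A, a partner of Hsp70, read 423.4, 3329.7 and 386.6 in AtGATA2ox, against 215.4, 191.2 and 169.3 in bri1-116 (log2 fold change 2.09 ± 0.63 SE, adjusted p = 0.033). Its AtGATA2ox replicate 2 stood far above the other arrays, and the call ended without any 1 of the bri1-116 arrays (adjusted p = 0.072 to 0.10). HSA32 was not called at 0.38.

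Histone genes were called in both directions, and few bHLH genes were called. HIS1-3, a linker histone induced by drought, read 62.6, 127.8 and 79.5 in AtGATA2ox, against 480.3, 467.8 and 521.3 in bri1-116 (log2 fold change -2.49 ± 0.32 SE, adjusted p = 0.00021). HTB4, a histone H2B, read 2317.1, 2585.3 and 2418.5 in AtGATA2ox, against 1261.4, 1415.4 and 1404.0 in bri1-116 (log2 fold change 0.84 ± 0.15 SE, adjusted p = 0.0019). HIS1-3 was lower and HTB4 higher without overlap, and HTB4 was not called with hybridisation-control scaling (adjusted p = 0.38). Of 7 histone genes, 2 were higher and 2 lower, at a median of 0.46, with none higher and 2 lower under hybridisation-control scaling and none higher and 1 lower without a variance trend; HTB11 (0.61) was not called without bri1-116 replicate 1 or 2 (adjusted p = 0.064 to 0.12) and HON4 (-1.17) not without any array but AtGATA2ox replicate 2 (0.053 to 0.12). Of 11 bHLH genes 2 (18.2%) were lower, near the 12.6% of all loci, and none higher, at a median of -0.63. Hybridisation-control scaling gave 6 lower and a fit without a variance trend none. bHLH121, a regulator of iron uptake, read 162.2, 151.2 and 33.4 in AtGATA2ox, against 381.8, 371.1 and 722.4 in bri1-116 (log2 fold change -2.30 ± 0.54 SE, adjusted p = 0.0089), without overlap, and was not called without bri1-116 replicate 3 (adjusted p = 0.059). bHLH115, of the same response, had a log2 fold change of -0.63, lost without any array but AtGATA2ox replicate 1 (0.11 to 0.18). MYBC1, a MYB factor of freezing tolerance, read 920.6, 843.0 and 900.1 in AtGATA2ox, against 1798.8, 2122.0 and 1968.9 in bri1-116 (log2 fold change -1.14 ± 0.16 SE, adjusted p = 0.00031), lower on every array. None of 6 cell division genes was called, at a median of -0.31, and neither were the reference genes GAPC2 and PEX4 (log2 fold changes of 0.18 and 0.10).

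Among symbol families with at least 5 measured loci, aldehyde dehydrogenases, which oxidise aldehydes formed in stress and metabolism, were the family with at least 60% of loci called in 1 direction, and were chosen by that share after values were known. Of 8 ALDH genes, 5 were lower and 2 higher, at a median of -0.70. Median centring gave 3 lower and 2 higher, quantile normalisation 5 and 1, hybridisation-control scaling 6 and 0, and a fit without a variance trend 2 and 0. Leaving out any 1 array but AtGATA2ox replicate 1 gave 4 lower, under that share of 60%. ALDH10A8 read 2266.2, 2906.5 and 2083.9 in AtGATA2ox, against 6868.1, 6433.6 and 5802.3 in bri1-116 (log2 fold change -1.41 ± 0.18 SE, adjusted p = 0.00017). ALDH3F1 read 557.5, 547.5 and 418.9 in AtGATA2ox, against 1081.2, 1123.4 and 1155.0 in bri1-116 (log2 fold change -1.15 ± 0.18 SE, adjusted p = 0.00081). ALDH10A9 read 935.4, 1186.9 and 673.3 in AtGATA2ox, against 1772.0, 1783.6 and 1669.6 in bri1-116 (log2 fold change -0.94 ± 0.20 SE, adjusted p = 0.0061). All 3 were lower on every AtGATA2ox array. ALDH11A3, named after its values were seen, had a log2 fold change of -0.53, and its call ended without any 1 of the 6 arrays (adjusted p = 0.054 to 0.18). ALDH2C4 had a log2 fold change of -0.78 and missed the threshold with median centring (adjusted p = 0.065). ALDH6B2, of valine breakdown, and ALDH7B4 had log2 fold changes of 0.86 and 0.67; ALDH6B2 was not called without bri1-116 replicate 1 (adjusted p = 0.064), and ALDH7B4 not without AtGATA2ox replicate 3 or any bri1-116 array (0.071 to 0.10).

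Neighbouring genes were examined in the order of the RefSeq annotation (assembly TAIR10.1). Of 8690 neighbouring measured pairs, 253 (2.91%) were called in the same direction and 189 in opposite directions. Over all loci 6.9% were called higher and 12.6% lower, so some pairs would share a direction whatever their order. Whether neighbours did so more often than other pairs was not tested. Runs of neighbours that were each at least 4-fold apart in the same direction numbered 19, of which 12 were higher and 7 lower, and held 39 genes. The run with the largest mean difference was AT5G62330 with AT5G62340 on chromosome 5, described above. AT1G76640 lies beside CML38 on chromosome 1, both higher. AT5G52750 read 456.6, 916.8 and 1009.1 in AtGATA2ox, against 29.2, 28.6 and 34 in bri1-116 (log2 fold change 4.58 ± 0.38 SE, adjusted p = 1e-05). Its neighbour AT5G52760 on chromosome 5 read 155.0, 347.2 and 169.3 in AtGATA2ox, against 1.2, 3.4 and 34.7 in bri1-116 (log2 fold change 4.90 ± 0.98 SE, adjusted p = 0.0039). On chromosome 3, AT3G62950 read 427.1, 454.8 and 1029.0 in AtGATA2ox, against 10.3, 6.7 and 43.5 in bri1-116 (log2 fold change 5.22 ± 0.66 SE, adjusted p = 0.00019). These 3 genes were higher on every array, from bri1-116 means in the Bacillus range. AT3G62960, next to it, read 23.3, 72.7 and 64.1 in AtGATA2ox, against 8.9, 3.4 and 6.6 in bri1-116 (log2 fold change 2.82 ± 0.84 SE, adjusted p = 0.031), and was not called without any array but AtGATA2ox replicate 1 (adjusted p = 0.058 to 0.12) or with hybridisation-control scaling (0.060). The longest run held 3 genes, AT1G67860, AT1G67865 and AT1G67870, with log2 fold changes of -2.34, -2.51 and -2.77. Probe sets of neighbouring paralogues may share signal, which was not tested.

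Markers of cell types were sparsely measured, 11 of 131 symbols. STOMAGEN, a mesophyll peptide that promotes stomata, read 774.5, 424.5 and 607.4 in AtGATA2ox, against 4049.2, 2365.0 and 2834.6 in bri1-116 (log2 fold change -2.36 ± 0.25 SE, adjusted p = 5.1e-05), lower on every AtGATA2ox array. With SPCH, MUTE and the FAMA gene FMA, none of which was called, the summed stomatal list ran from 558 to 847.1 in AtGATA2ox and from 2537.7 to 4146.2 in bri1-116, most of it STOMAGEN. GUT2, a xylan synthesis gene and the xylem marker measured, had a log2 fold change of -1.12, lost without AtGATA2ox replicate 3 or any bri1-116 array (adjusted p = 0.058 to 0.12). The meristem markers CLV3 and YAB3, the root hair expansins EXPA7 and EXPA18, OPS of phloem and BAN of the seed coat were not called. The means of SPCH, MUTE, CLV3 and BAN lay in the Bacillus range in both genotypes, and those of EXPA7 and EXPA18 in AtGATA2ox. Such levels may be background, so these markers are not shown to be unchanged. No symbol listed for root endodermis and cortex or for pollen matched a measured locus, and the part of cell type makeup in the gene groups was not tested.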

How the data were processed

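The authors deposited an intensity on a linear scale for each probe set of every array. Per the submitters' processing notes the authors used MAS5 and GCRMA; which of them made these values is not stated, and no genome build was given. On each deposited array the mean intensity without the lowest and highest 2% of probe sets came to about 500, so a shift of many transcripts in 1 direction pushes the apparent level of others in the opposite one. The table held 22810 probe sets; 64 controls were left out and 22746 tested, of which the platform's annotation paired 13513 (59.4%) with 1 gene and 503 with several, while 8730 were not in it and are not named. RefSeq names (TAIR10.1) matched 13436. Closely related genes may share probe signal.

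Intensities were taken as log2(value + 1), a pseudocount of 1, without further normalisation, so fold changes of dim probe sets are understated. limma 3.58.1 in R 4.3.3 (lmFit, eBayes with a variance trend) fitted the 3 AtGATA2ox and 3 bri1-116 arrays with 4 residual degrees of freedom; p-values were adjusted by Benjamini-Hochberg over all probe sets tested and called under 0.05. The fit was also run on simulated data with independent noise and known changes. That simulation held no shift of scaling and no hybridisation difference, so it cannot speak to either. Tables were made with Python 3.11.15, numpy 2.4.6 and pandas 2.3.3, and plots with matplotlib 3.10.9. The number of arrays limits the precision. The brightest of a locus's probe sets stood for it; 147 loci had several, none called in opposite directions.

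Genes were named by rule: called, arrays not overlapping, and a group mean no lower than the overall median intensity (117.9), which left 849 loci higher and 1579 lower. Among them the 15 largest each way and up to 4 per list with the smallest adjusted p were named, with up to 2 members not called, all members of the small regulator lists, the 4 strongest runs of neighbours and families with at least 60% of loci called 1 way; exceptions are marked. The members and lists were chosen with earlier results of these data known. Alternatives were all 9 arrays, a replicate block, quantile normalisation, median centring, scaling to 9 hybridisation control probe sets, a pseudocount of 16, leaving out the dimmest 40%, no variance trend, and leaving out each array. Same-numbered arrays of the genotypes had correlated deviations of 0.0198, 0.0195 and 0.0135, under 0.1, so the numbers were not taken as pairs. A planned search of promoter motifs was not run, since promoter sequences were not used here.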

Additional observations from a re-analysis of the deposited data

Results flagged for a closer look

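The array control probe set for 25S ribosomal RNA, outside the tested probe sets, read 502.8 in AtGATA2ox replicate 2, and 8762.9 and 3533.8 in bri1-116 replicates 1 and 2, above every Col array (143 to 194.2). The other AtGATA2ox arrays read 110.4 and 177.3, and bri1-116 replicate 3 read 107.7. On the array's 5S ribosomal RNA control the intensity was 107.3, 56.5 and 141.3 in AtGATA2ox, above every Col array (13.2 to 31.4), against 20.9, 7.7 and 3.5 in bri1-116. The part of ribosomal RNA in the cRNA in the results was not tested, and leaving out each of these arrays is reported with the alternatives.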

How the results depend on the processing

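The counts of probe sets called, 4965 in all with 1847 higher and 3118 lower in AtGATA2ox, stayed within 1.5 times with all 9 arrays (6086), quantile normalisation (4523), median centring (4375), a pseudocount of 16 (4997) and without the dimmest 40% (5253). Scaling to the hybridisation controls gave 7110 calls, 838 higher and 6272 lower, and dropping the variance trend gave 2533, 1018 higher and 1515 lower. Leaving out 1 array gave 3132 to 5023 calls, 1373 to 1799 higher and 1759 to 3254 lower, the lowest without bri1-116 replicate 2. The share of higher calls was 37.2% as deposited, 46.5% with quantile normalisation, 52.0% with median centring and 11.8% with hybridisation-control scaling. With the replicate number as a block 5066 were called, 1897 higher and 3169 lower, of which 4749 were shared; each array correlated best with its own number, a hint from the data and not the design. Of 267 genes, the block ended 1 call and made 1, dropping the trend ended 69, and leaving out single arrays ended 15 to 41. CSLC04 reversed, at -0.04 with hybridisation-control scaling; the cause was not tested. Dim probe sets limit what can be seen: of the eligible loci, 136 of 1579 lower (8.61%) had an AtGATA2ox mean, and 61 of 849 higher (7.18%) a bri1-116 mean, in the range of the Bacillus controls. Promoter motifs were not run.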

Other observations

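Several groups outside the lists held large differences between the genotypes. They were chosen after their values were seen and are given without a test of their own. Over all loci, 6.9% were called higher and 12.6% lower, and a count near those shares is not a result about a group. Of 11 PRA genes, whose membrane proteins act in vesicle traffic, 6 were higher and 1 lower in AtGATA2ox, at a median log2 fold change of 0.61, and 2 were higher and 2 lower with scaling to the hybridisation controls. Without AtGATA2ox replicate 3 or any 1 bri1-116 array 3 were higher and 1 lower, and without a variance trend 2 and 0. PRA1.B4 read 6929.7, 6728.1 and 7258.5 in AtGATA2ox, against 1001.7, 1113.7 and 1222.3 in bri1-116 (log2 fold change 2.65 ± 0.15 SE, adjusted p = 8.6e-07). PRA1.B6 read 3881.5, 2925.8 and 4015.7 in AtGATA2ox, against 651.2, 653.9 and 579.6 in bri1-116 (log2 fold change 2.51 ± 0.17 SE, adjusted p = 2.5e-06). Both were higher on every array. Tetraspanins, membrane proteins that organise other proteins, counted 3 higher (20%) and 2 lower (13.3%) of 15, the lower share being near that of all loci. Hybridisation-control scaling gave 2 and 2. TET8 read 11581.8, 15794.1 and 19703.5 in AtGATA2ox, against 3461.1, 3334.9 and 4405.9 in bri1-116 (log2 fold change 2.05 ± 0.22 SE, adjusted p = 6e-05). TET2 read 396.8, 308.5 and 501.1 in AtGATA2ox, against 1339.3, 1591.8 and 1572.4 in bri1-116 (log2 fold change -1.92 ± 0.21 SE, adjusted p = 5.8e-05). These 2 members of the family did not overlap between genotypes and differed in direction. Of 29 SCPL genes, serine carboxypeptidase-like enzymes, 7 were lower and 1 higher, with 10 lower under hybridisation-control scaling and none lower without a variance trend. Genes whose symbol begins with bZIP counted 4 higher and none lower of 14, which became 1 and 3 with hybridisation-control scaling. Factors of this class under other symbols, such as HYH and EEL, were not counted, so the count does not describe all bZIP factors. HYH was not called, whereas EEL was lower. EEL read 92.5, 103.6 and 137.4 in AtGATA2ox, against 520.3, 580.9 and 512.3 in bri1-116 (log2 fold change -2.28 ± 0.27 SE, adjusted p = 0.0001). BZIP60, of the unfolded protein response, read 5106.2, 9264.4 and 8303.3 in AtGATA2ox, against 2556.2, 2334.2 and 3069.4 in bri1-116 (log2 fold change 1.47 ± 0.23 SE, adjusted p = 0.00068).

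Single genes chosen after their values were seen included enzymes of sulphur, sugar and nitrogen metabolism. MSRB9, a methionine sulfoxide reductase, read 28087.8, 17754.6 and 23198.6 in AtGATA2ox, against 798.8, 676.8 and 972.1 in bri1-116 (log2 fold change 4.81 ± 0.21 SE, adjusted p = 2.1e-07). SWEET2, a sugar transporter, read 3051.6, 4665.3 and 7336.9 in AtGATA2ox, against 284.6, 227.7 and 324.3 in bri1-116 (log2 fold change 4.09 ± 0.28 SE, adjusted p = 2.1e-06). ASPGB1, an asparaginase, read 963.9, 1626.4 and 2272.1 in AtGATA2ox, against 74.2, 159.4 and 158.4 in bri1-116 (log2 fold change 3.62 ± 0.35 SE, adjusted p = 3.3e-05). All 3 were at least 12-fold higher in AtGATA2ox without overlap. PPDK, which makes phosphoenolpyruvate from pyruvate, NDB2, a mitochondrial NAD(P)H dehydrogenase, and RR16, a cytokinin response regulator, were higher with log2 fold changes of 2.80, 2.79 and 3.08. DPE1, the plastid disproportionating enzyme of starch breakdown, read 156.1, 49 and 59.1 in AtGATA2ox, against 944.4, 960.8 and 968.1 in bri1-116 (log2 fold change -3.62 ± 0.38 SE, adjusted p = 5e-05). TMT2, a vacuolar sugar transporter, read 177.8, 196.8 and 125.9 in AtGATA2ox, against 885.3, 927.9 and 949.0 in bri1-116 (log2 fold change -2.48 ± 0.23 SE, adjusted p = 2.1e-05). CCS, the copper chaperone of superoxide dismutase, read 214.4, 281.4 and 251.3 in AtGATA2ox, against 1446.4, 1671.1 and 1174.1 in bri1-116 (log2 fold change -2.51 ± 0.20 SE, adjusted p = 8e-06). These were lower on every AtGATA2ox array, as were the thylakoid proteins TROL (-2.32) and TAPX (-1.72), the thiamine synthesis enzyme THIC (-2.15), the glucosinolate transporter GTR2 (-1.96) and the wall enzyme GH9B8 (-3.26).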
